A study of Mus musculus with 8 samples.

Results

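Peaks of 4 reprogramming factors were examined at 10 mouse genes of the Nodal, TGF-beta and Bmp pathways: Nodal, Lefty1, Lefty2, Inhba, Bmp4, Tgfb1, Tgfb2, Tgfb3, Smad3 and Smad7. The genes were taken by name from the mm10 annotation, where all 10 were found among 21755 protein-coding genes on chromosomes 1 to 19 and X. A peak was assigned to a gene when its summit, the base with the most tags, lay in the gene body or within 50 kb of the first start site. This gave 557 distinct summits out of 661009 peaks in 8 libraries. The windows of Lefty1 and Lefty2 overlap and 46 summits counted for both, so that the counts by gene add up to 603.

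Nodal, Activin (a dimer of the product of Inhba) and the TGF-beta ligands bind receptor kinases that phosphorylate Smad2 and Smad3, whereas Bmp ligands act through Smad1, Smad5 and Smad9. Phosphorylated Smads join Smad4, enter the nucleus and bind DNA with partner factors such as Foxh1. Lefty proteins block Nodal outside the cell and Smad7 blocks the receptors inside it, and the genes of both are induced by the pathway they restrain. TGF-beta signalling maintains the mesenchymal state of fibroblasts and its inhibition is known to favour reprogramming, while Bmp4 promotes the mesenchymal-to-epithelial transition early in the process and Nodal and Lefty genes are expressed in pluripotent cells.

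The libraries were Flag CUT&Tag (a transposase directed by an antibody inserts adapters next to the tagged protein) of mouse embryonic fibroblasts at day 3 of reprogramming, 1 each for Nanog, NanogBiD, Oct4, Oct4BiD, Sox2, Sox2BiD, Nr5a2 and Nr5a2BiD. BiD is a short domain of SS18 through which that subunit of the BAF remodelling complex contacts the ATPase BRG1, and it was joined to the N-terminus of the factor. Per the study's methods, the fibroblasts came from embryos carrying an Oct4-GFP reporter, the factors were delivered by retrovirus and cultures were kept in a chemically defined induction medium. The titles do not say which untagged factors the cells also received. Each group was 1 library, so no value below has a replicate, and differences between libraries are given as descriptions with no test. Peak numbers ran from 54794 in native Oct4 to 120594 in Sox2BiD, the lowest summit height called ran from 6 to 10 tags, and the files give no read totals. A summit lay on coding exons of the library's own factor in 6 of 6 Nanog, Sox2 and Nr5a2 libraries, whereas none lay on those of Pou5f1 in either Oct4 library. A summit also lay on coding exons of Nanog in the Oct4BiD library. Peak lists hold no expression values, so fibroblast markers could not be examined. In a population of cells, fewer cells carrying the factor and less factor on the DNA of each cell cannot be told apart.

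The sequences under 4 summits are shown first, because each comes from a region with a peak in both libraries of 1 factor and in no library of another factor, the one with the highest lower score for that factor. The score is 10 times the negative log10 of the caller's p-value. Each run is 101 bases of GRCm38 centred on the summit of the BiD library, on the plus strand, and capitals mark matches on either strand to the consensus of the factor bound there (the octamer ATGCAAAT for Oct4, CATTGTT for Sox2, GCCATTA for Nanog and CAAGGNCA for Nr5a2). The windows are chr13:15985219-15985319, upstream of Inhba, for Nanog, chr1:180958767-180958867, in an intron of Tmem63a downstream of Lefty1, for Oct4, chr13:16032474-16032574, just past the end of Inhba, for Sox2 and chr1:186627494-186627594, in an intron of Tgfb2, for Nr5a2.
Nanog near Inhba: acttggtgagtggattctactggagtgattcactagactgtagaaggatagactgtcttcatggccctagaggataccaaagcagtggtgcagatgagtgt
Oct4 near Lefty1: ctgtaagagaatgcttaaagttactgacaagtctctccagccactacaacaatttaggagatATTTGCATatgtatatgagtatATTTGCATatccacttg
Sox2 near Inhba: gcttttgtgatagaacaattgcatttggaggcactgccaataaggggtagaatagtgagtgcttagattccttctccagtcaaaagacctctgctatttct
Nr5a2 in Tgfb2: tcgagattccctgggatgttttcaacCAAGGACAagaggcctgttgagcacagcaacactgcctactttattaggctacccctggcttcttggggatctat
The Oct4 window held 2 octamers in the same orientation and the Nr5a2 window held 1 match, whereas the Nanog and Sox2 windows held none of these letters.

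A further 4 windows, chosen after their values were seen, show matches at other summits of these genes. They are chr10:61385623-61385723 upstream of Nodal, under the Nr5a2 summit, and chr13:16009940-16010040 upstream of Inhba, under the Nr5a2BiD summit, both with the NR5A match in capitals. The third is chr1:180888803-180888903 upstream of Lefty2, under the NanogBiD summit, with a match to AATCCACA, a consensus of Foxh1, in capitals. The fourth is chr14:46436722-46436822 upstream of Bmp4, under the Nanog summit, with a match to CATTCC, the TEAD consensus, in capitals.
Nr5a2 upstream of Nodal: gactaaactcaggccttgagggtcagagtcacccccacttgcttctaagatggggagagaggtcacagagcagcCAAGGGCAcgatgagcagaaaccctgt
Nr5a2BiD upstream of Inhba: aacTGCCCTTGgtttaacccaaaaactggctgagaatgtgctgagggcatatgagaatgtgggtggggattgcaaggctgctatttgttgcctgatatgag
NanogBiD upstream of Lefty2: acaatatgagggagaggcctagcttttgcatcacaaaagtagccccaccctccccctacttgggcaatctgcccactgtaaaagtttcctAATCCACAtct
Nanog upstream of Bmp4: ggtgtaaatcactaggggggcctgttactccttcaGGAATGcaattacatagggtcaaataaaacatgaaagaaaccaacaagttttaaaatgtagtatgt

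All 10 genes had at least 1 summit in each of the 8 libraries. Over the 8 libraries, totals ran from 23 summits at Inhba to 102 at Smad3, with a median of 59.5 per gene against 41 per protein-coding gene. The median number per gene was 7.5 in Nanog, 7.5 in NanogBiD, 5 in Oct4, 7.5 in Oct4BiD, 2.5 in Sox2, 8 in Sox2BiD, 12 in Nr5a2 and 9.5 in Nr5a2BiD, and the medians over all coding genes were 4, 4, 3, 5, 2, 7, 8 and 5. The median over the 10 genes was the higher in all 8 libraries, with the widest gaps in the Nr5a2 and Nanog libraries and the narrowest in the Sox2 libraries. These counts were not scaled to window length, which was 161 kb at Smad3 and 133 kb at Tgfb2. Of the peaks called in each library, these windows took 9.8 per 10000 in Nanog, 9.63 in NanogBiD, 8.03 in Oct4, 6.7 in Oct4BiD, 4.99 in Sox2, 6.88 in Sox2BiD, 10.4 in Nr5a2 and 10.6 in Nr5a2BiD. The native Sox2 library had the smallest share and the Nr5a2 libraries the largest.

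**Figure D1:**
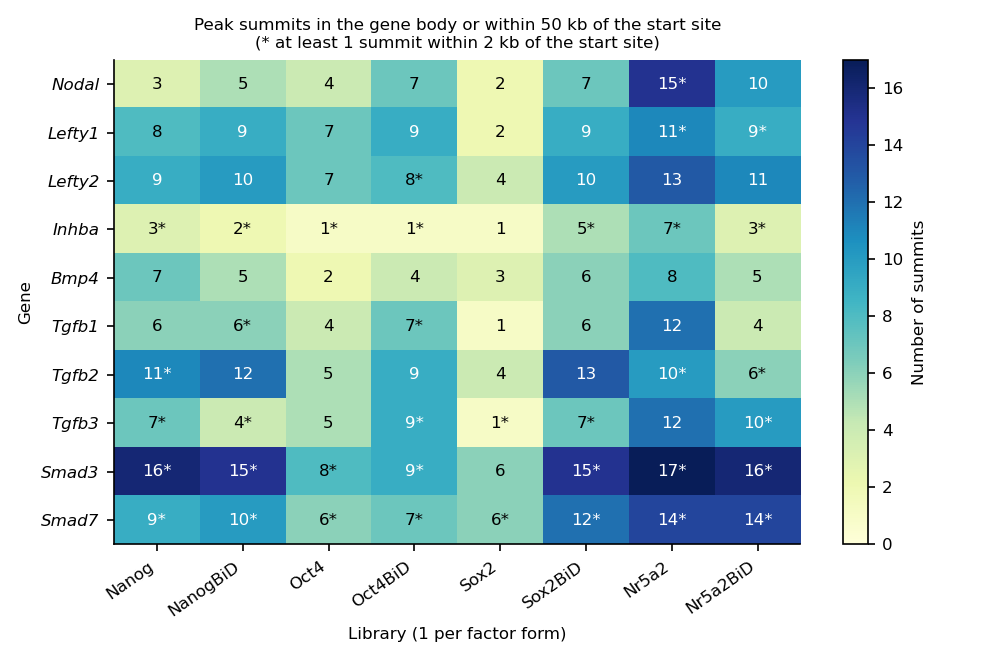
Number of peak summits per gene (rows) and library (columns), with an asterisk where at least 1 summit lay within 2 kb of the first start site. Smad3 had the most summits or tied for the most in all 8 libraries, Inhba the fewest or tied for the fewest, and Smad7 is the gene with an asterisk in every library.

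Nodal (ENSMUSG00000037171.6, chr10:61417972-61425338, plus strand) encodes the ligand that keeps the epiblast pluripotent and patterns the embryo. Its window held 3 summits in Nanog, 5 in NanogBiD, 4 in Oct4, 7 in Oct4BiD, 2 in Sox2, 7 in Sox2BiD, 15 in Nr5a2 and 10 in Nr5a2BiD. Nr5a2 and Nr5a2BiD were the highest libraries, and each BiD library exceeded its native partner except for Nr5a2. Of the 53 summits, 28 lay more than 2 kb upstream, 4 in the gene beyond 2 kb of the start, 20 downstream and 1 in the promoter, a native Nr5a2 summit of 15 tags at 0.535 kb in the first intron. Distances are from the first start site in the direction of transcription, with a minus sign for upstream.

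Regions that differed by factor lay upstream of Nodal. At -13.5 kb, only the Oct4 libraries had a peak, with a height of 29 tags and a score of 304 in Oct4 and 29 tags and 282 in Oct4BiD. At -42.5 kb, in an intron of Pald1, peaks were found in Oct4 (26 tags), Oct4BiD (47 tags) and Sox2BiD (40 tags, score 530.0), with summits within 33 bp of each other and none in the other 5 libraries. At -32.3 kb, the region whose NR5A match is printed above, only Nr5a2 (55 tags, score 195) and Nr5a2BiD (57 tags, score 201) had a peak. The gene itself was marked at 6.7 kb, in noncoding sequence of its last exon, by Sox2BiD with 48 tags and a score of 414. The other peaks there had 13 tags in Sox2, 25 in Nr5a2 and 22 in Nr5a2BiD.

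Lefty1 (ENSMUSG00000038793.8, chr1:180935022-180938400, plus strand) and Lefty2 (ENSMUSG00000066652.5, chr1:180893108-180899103, plus strand) are neighbouring genes for secreted Nodal antagonists. Lefty1 had 8, 9, 7, 9, 2, 9, 11 and 9 summits in Nanog, NanogBiD, Oct4, Oct4BiD, Sox2, Sox2BiD, Nr5a2 and Nr5a2BiD, and in the same order Lefty2 had 9, 10, 7, 8, 4, 10, 13 and 11. At both genes native Sox2 was the lowest library and native Nr5a2 the highest. The totals of 64 and 72 exceeded those of 86.9% and 91.4% of coding genes, and 14 merged regions were counted for both. Their windows also hold start sites of other coding genes, Sde2 and Tmem63a among them.

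The promoters of the Lefty genes were nearly free of peaks. Within 2 kb of the Lefty1 start, native Nr5a2 had a summit of 28 tags (score 254) at 0.328 kb, in the first coding exon and with an NR5A match within 50 bp, and Nr5a2BiD had a different summit of 15 tags at 1.78 kb. Within 2 kb of the Lefty2 start the only summit was in Oct4BiD, of 28 tags. Most signal stood further out. Upstream of Lefty1, at -3.65 kb, Nanog (35 tags), NanogBiD (44 tags) and Sox2BiD (24 tags) had summits within 105 bp of each other, all with an AP-1 match (TGANTCA), and no other library had a peak there.

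Upstream of Lefty2, a merged region of 7 libraries around -3.06 kb was made of separate summits. The Nr5a2 libraries peaked at -3.06 kb with 74 and 68 tags, both with an NR5A match, and the Nanog libraries peaked about 1 kb further upstream with 18 tags in Nanog and 38 in NanogBiD, both with the Foxh1 match printed above. The remaining summits in it were 13 tags in Oct4, 28 in Oct4BiD and 14 in Sox2BiD, spread over 3272 bp in all. Further upstream, at -34.1 kb in an intron of Sde2, the peaks were in NanogBiD (27 tags), Sox2 (22 tags) and Sox2BiD (44 tags, score 451).

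The strongest Oct4 signal of all 10 genes lay downstream of Lefty1, at 23.8 kb, inside an intron of Tmem63a. It had 45 tags and a score of 519 in Oct4 (ranked 1039 of 54794 peaks) and 102 tags and a score of 531 in Oct4BiD (ranked 4348 of 93978), with summits 80 bp apart and no peak in any other library. The height ratio of Oct4BiD to Oct4 was 1.18 on the log2 scale (exact 95% binomial interval 0.66 to 1.72, for counting error only). The region was named for its scores in these libraries, so the interval does not test a difference between the forms. Only the window of the Oct4BiD summit held octamers, since the native summit lay on the side away from them and its own window held an AP-1 match instead. This region belongs to Lefty1 by distance alone, and the start of Tmem63a is nearer, at 16473 bp.

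Inhba (ENSMUSG00000041324.14, chr13:16011851-16031621, plus strand) encodes the Activin A subunit and has no other coding start in its window. It had 3, 2, 1, 1, 1, 5, 7 and 3 summits in the 8 libraries in the order above, fewer than any other member overall. The Oct4 libraries had a summit only at the start of the gene, and the other factors also had places of their own. A peak was called at the start of the gene in 7 libraries, and native Sox2 had none. The summits, around 0.558 kb, had between 15 tags (Oct4BiD) and 31 tags (native Nr5a2) and lay within 179 bp of each other. By score several were weak, at 51.23 in NanogBiD (ranked 74707 of 75769) and 58.01 in Sox2BiD (ranked 111641 of 120594). Scores were 77.49 in Oct4, 81.78 in Nanog, 109.32 in Nr5a2BiD, 150.25 in Oct4BiD and 226.75 in native Nr5a2. The Nr5a2 libraries alone had a summit at -1.86 kb, of 30 tags in Nr5a2 and 37 in Nr5a2BiD, 1 bp apart and with the NR5A match printed above.

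Beyond the promoter, Inhba carried the region that ranked highest for Sox2BiD. At 20.7 kb, just past the end of the gene, Sox2 had 41 tags with a score of 442 and Sox2BiD had 50 tags with a score of 825 (ranked 1391 of 120594 peaks), with summits 7 bp apart. The height ratio was 0.29 on the log2 scale (interval -0.34 to 0.92), an interval that includes 0. Divided by the uniquely mapped pairs of each library, the ratio was 0.68 (interval 0.06 to 1.32), which does not include 0. The region was named for its Sox2BiD score, so neither interval tests a difference between the forms. The native Sox2 summit there was the only one of that library in the window. At -26.6 kb, Nanog (26 tags, score 171) and NanogBiD (23 tags, score 160.2) peaked 1 bp apart with no peak of another factor, over an AP-1 match.

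Bmp4 (ENSMUSG00000021835.15, chr14:46383520-46390669, minus strand) encodes the ligand of the Smad1 and Smad5 branch. It had 7, 5, 2, 4, 3, 6, 8 and 5 summits in the same order and none within 2 kb of its first start site in any library. A region around 3.3 kb, in an intron, had peaks in 7 libraries, from 15 tags in Sox2BiD to 55 tags in Oct4BiD, with 37 tags in native Oct4 and none in native Sox2. Its summits spread over 2392 bp. In each of these 7 libraries Bmp4 had a summit within 2 kb of another of its annotated start sites.

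The highest-scoring peak of both Nanog libraries at these genes lay far upstream of Bmp4, at -46.1 kb. Nanog reached 53 tags and a score of 799, ranked 202 of 73465, and NanogBiD 51 tags and 703, ranked 935 of 75769, a log2 height ratio of -0.06 (interval -0.64 to 0.53). Both summits, 7 bp apart, had the TEAD match printed above. Oct4 (14 tags), Sox2BiD (12 tags), Nr5a2 (28 tags) and Nr5a2BiD (16 tags) had lower peaks in the same region. A second region, at -31.3 kb, was high only in Oct4BiD, with 53 tags against 18 in Nr5a2 and 11 in Nr5a2BiD and no peak in native Oct4.

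Among the TGF-beta ligands, Tgfb1 (ENSMUSG00000002603.15, chr7:25687002-25705077, plus strand), the main isoform of most adult tissues, had 6, 6, 4, 7, 1, 6, 12 and 4 summits. Its window holds the starts of 5 other coding genes, and 2 of its 3 regions found in 7 libraries lay at such starts. The region at -27.9 kb, 72 bp from the start of Bckdha, had 31, 35, 19, 36, 37, 34 and 38 tags in the 7 libraries other than native Sox2, and the region at -5.99 kb, at the start of B9d2, was found in the same 7. The third, at 24.9 kb in noncoding exon sequence of Ccdc97, was found in all libraries but Oct4BiD. It had the highest summit of the window, of 47 tags in NanogBiD. The Tgfb1 promoter had low summits in 2 libraries, of 13 tags in NanogBiD and of 14 and 12 tags in Oct4BiD.

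Tgfb2 (ENSMUSG00000039239.14, chr1:186622792-186705989, minus strand), which acts in heart and palate development, had 11, 12, 5, 9, 4, 13, 10 and 6 summits, and 47 of its 70 lay in the gene body beyond 2 kb of the start. One of its regions of both Nanog libraries alone differed widely in height between the forms. At 55.9 kb, in an intron, Nanog had 10 tags and a score of 68.2 and NanogBiD had 65 tags and a score of 602, ranked 1944 of 75769. At 78.4 kb, also intronic, Nr5a2 (44 tags, score 578) and Nr5a2BiD (42 tags, score 432) peaked 6 bp apart, with a log2 height ratio of -0.07 (interval -0.71 to 0.58) and the NR5A match shown above.

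Tgfb3 (ENSMUSG00000021253.7, chr12:86056745-86079041, minus strand), required for fusion of the palate, had 7, 4, 5, 9, 1, 7, 12 and 10 summits. Its promoter had a summit in 6 libraries, and the merged region there, of 7 libraries, had summits spread over 3536 bp. Upstream of it, at -32.2 kb, native Oct4 had 15 tags and a score of 70.4 and Oct4BiD 46 tags and a score of 394, with summits 8 bp apart and no other library. At -12.9 kb the Nanog libraries (40 and 36 tags) and the Nr5a2 libraries (42 and 30 tags) were higher than the Oct4 libraries (23 and 16 tags), and neither Sox2 library had a peak.

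Smad3 (ENSMUSG00000032402.12, chr9:63646767-63757994, minus strand), the Smad that transmits TGF-beta, Activin and Nodal signals, had 16, 15, 8, 9, 6, 15, 17 and 16 summits. Its window is the longest, at 161 kb with no other coding start. Per 100 kb of window its total was 63.3 summits, above the 52.6 of Tgfb2 and below the 78 of Smad7, and 71 of its 102 summits lay in the gene body beyond 2 kb of the start. The promoter had a summit in every library but native Sox2, of 19, 31, 20, 31, 37, 30 and 39 tags in the remaining 7.

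The introns of Smad3 held strong regions that differed by factor. At 80.3 kb the Sox2 libraries had the highest scores, with 32 tags and a score of 476 in Sox2 and 55 tags and 760.2 in Sox2BiD, against 21 tags and a score of 169 in Nanog, 32 tags and 349 in NanogBiD and 16 tags and 51.9 in Nr5a2BiD. At 104 kb only the Sox2 libraries had a peak, of 35 and 42 tags. At 46.2 kb only the Nr5a2 libraries had one, of 58 and 49 tags. At 41.7 kb NanogBiD was highest with 59 tags and a score of 590.5, against 27 tags in Nanog, 23 in Sox2BiD, 27 in Nr5a2 and 33 in Nr5a2BiD. A region at 55.2 kb, found like the promoter in 7 libraries but lacking Oct4BiD, reached 56 tags in Nanog and 64 in NanogBiD, but its summits were spread over 2995 bp.

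Smad7 (ENSMUSG00000025880.11, chr18:75367529-75395935, plus strand), the inhibitory Smad, had 9, 10, 6, 7, 6, 12, 14 and 14 summits and no other coding start in its window. It was the member with a promoter summit in all 8 libraries, of 35 tags in Nanog, 44 in NanogBiD, 14 in Oct4, 36 in Oct4BiD, 19 in Sox2, 27 in Sox2BiD, 57 in Nr5a2 and 41 in Nr5a2BiD, within 745 bp of each other. In tags, which are not scaled to depth, the native Oct4 and Sox2 libraries were the lowest and native Nr5a2 the highest. The order by score differed, with NanogBiD lowest at 96.73 and Oct4BiD highest at 333.4. Upstream, at -13.8 kb, the 6 Nanog, Oct4 and Sox2 libraries had summits within 101 bp, of 29, 43, 14, 32, 30 and 37 tags, and neither Nr5a2 library had a peak. At -42.4 kb the Oct4 libraries were highest, with 43 and 42 tags against 26 in Nanog, 25 in NanogBiD and 30 in Nr5a2.

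The highest-scoring peak at any of the 10 genes was downstream of Smad7. At 38.2 kb native Nr5a2 had 69 tags and a score of 1237, ranked 22 of 108030 peaks in that library, and Nr5a2BiD had 66 tags and a score of 575, ranked 1345 of 76217. The log2 height ratio was -0.06 (interval -0.57 to 0.44), so that the heights were within counting error of each other although the scores differed. NanogBiD had a lower peak there, of 15 tags. The summits of the Nr5a2 libraries were over 500 bp apart and neither had an NR5A match within 50 bp.

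**Figure D2:**
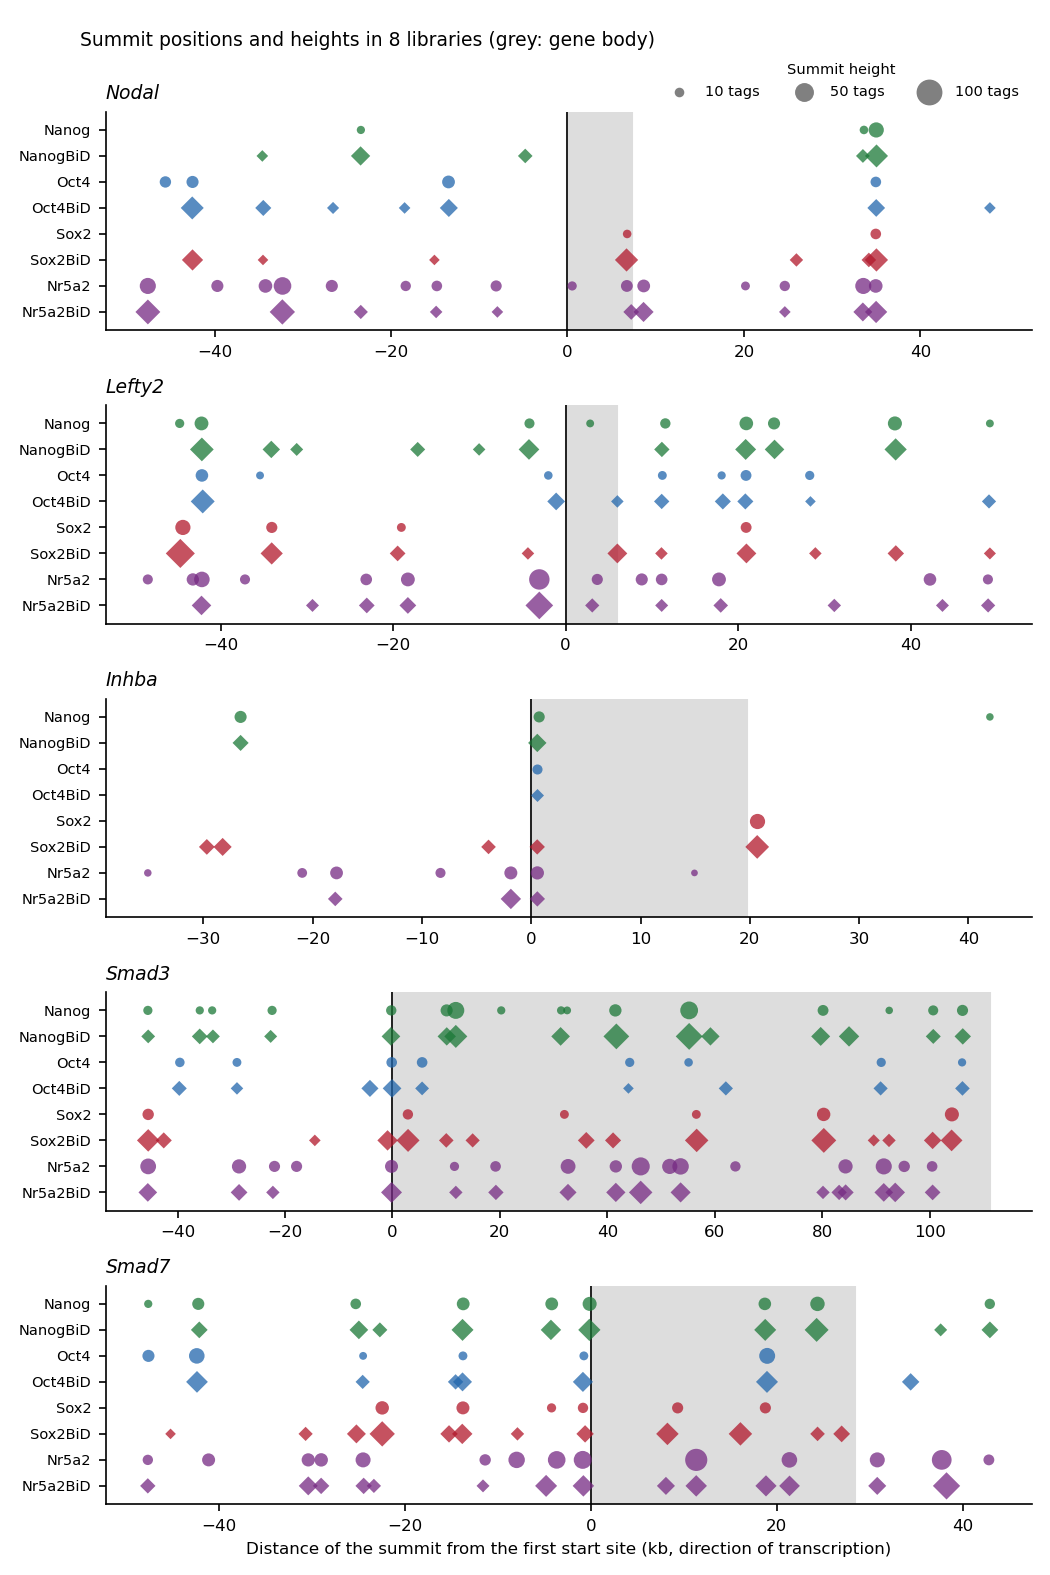
Position of each summit relative to the first start site (horizontal axis, kb, 0 at the start, transcription to the right) in each library (rows) for Nodal, Lefty2, Inhba, Smad3 and Smad7, with circles for native factors, diamonds for BiD factors, area proportional to height in tags and the gene body in grey. The columns of symbols at the starts of Inhba, Smad3 and Smad7 contrast with the near-empty starts of Nodal and Lefty2, and the Sox2 pair at 20.7 kb of Inhba stands alone.

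The number of the 10 genes with a promoter summit, within 2 kb of the first start site, was close to that of coding genes in general. It was 5 in Nanog (background 46.2% of coding genes), 5 in NanogBiD (49.4%), 3 in Oct4 (33.7%), 6 in Oct4BiD (50.7%), 2 in Sox2 (19.1%), 4 in Sox2BiD (46.2%), 6 in Nr5a2 (56.8%) and 6 in Nr5a2BiD (47.2%). In all, 37 of 80 pairs of gene and library had one. They were concentrated in a few genes, with 8 libraries at Smad7, 7 at Smad3, 7 at Inhba and 6 at Tgfb3, against 3 at Tgfb2, 2 at Lefty1, 2 at Tgfb1, 1 at Nodal, 1 at Lefty2 and 0 at Bmp4. Both intracellular Smads were thus marked in nearly every library. Nodal and its antagonists were marked almost only beyond 2 kb of the first start site. For Lefty2, Bmp4, Tgfb1 and Tgfb2 the count depended on the start site used. Within 2 kb of any annotated start of the gene, Bmp4 had a summit in every library but native Sox2. On that count Tgfb1 lacked one only in native Oct4 and native Sox2, and Tgfb2 only in the Oct4 libraries. Lefty2 had one in Nanog, Oct4BiD and Nr5a2BiD. Within 500 bp of the start, the libraries with a summit fell to 2 of 8 at Smad7 and 0 at Inhba, against 6 at Smad3 and 4 at Tgfb3. When summits near any coding start in the windows were counted, promoters held between 10.3% of the summits in native Sox2, beside 9.93% over all coding windows, and 27% in Oct4BiD (exact 95% interval 16.6 to 39.7), beside 15.4%.

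The BiD form was then compared with the native form of each factor, a contrast that asks where tethering to BAF went along with altered binding. In the windows of the 10 genes, Nanog had 72 summits and NanogBiD 73, Oct4 44 and Oct4BiD 63, Sox2 29 and Sox2BiD 83, and Nr5a2 112 and Nr5a2BiD 81. Per peak called, the log2 ratio of BiD to native was -0.02 for Nanog (exact 95% interval -0.51 to 0.47), -0.26 for Oct4 (-0.84 to 0.33), 0.47 for Sox2 (-0.16 to 1.13) and 0.04 for Nr5a2 (-0.39 to 0.46). All 4 intervals, which cover counting error only, include 0. Over the windows of all coding genes the same ratios were 0.08, 0.04, 0.10 and -0.04. Without scaling to peak numbers the ratios at the 10 genes were 0.02, 0.52, 1.52 and -0.47. As folds of the counts these are 1.01, 1.43, 2.86 and 0.723, beside 1.09, 1.76, 2.23 and 0.687 over all coding windows. An exact two-sided sign-flip test over 4 factors cannot reach 0.05, so none was run.

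Gene by gene, the direction followed the factor. With Sox2 all 10 genes had more summits in the BiD library, from 2-fold at Bmp4 and Smad7 to 7-fold at Tgfb3 (1 against 7 summits). With Oct4, 9 genes had more and Inhba was equal at 1. With Nr5a2, 9 had fewer and Smad7 was equal at 14. With Nanog, 5 genes had more (Nodal, Lefty1, Lefty2, Tgfb2 and Smad7), 4 had fewer (Inhba, Bmp4, Tgfb3 and Smad3) and Tgfb1 was equal at 6. For Oct4, Sox2 and Nr5a2 these are the directions of the peak totals of the libraries.

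A gene was counted as higher or lower where its summits differed at least 2-fold and it had at least 4 over both libraries. In Sox2 all 10 genes were higher and none lower, where 73.8% and 0.157% of coding genes were. In Oct4, 9 genes could be counted and Bmp4 was higher, with 2 against 4 summits, where 49.1% of coding genes were higher and 0.76% lower. In Nr5a2, Inhba (7 against 3) and Tgfb1 (12 against 4) were lower and none higher, where 21.2% and 0.309% of coding genes were. In Nanog none of the 10 was either, where 10.2% were higher and 2.91% lower. The Oct4 count thus lay below the background share and the Sox2 count above it. On counts per 10000 peaks, a scaling added after the data were seen, Lefty1, Inhba, Tgfb1 and Tgfb3 remained higher in Sox2BiD, Tgfb1 remained lower in Nr5a2BiD, and no gene was called in Oct4 or Nanog. The shares of coding genes called on that scale were 25.6% higher in Sox2BiD, 5.64% lower in Nr5a2BiD, 14.5% higher in Oct4BiD and 5.66% higher in NanogBiD.

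**Figure D3:**
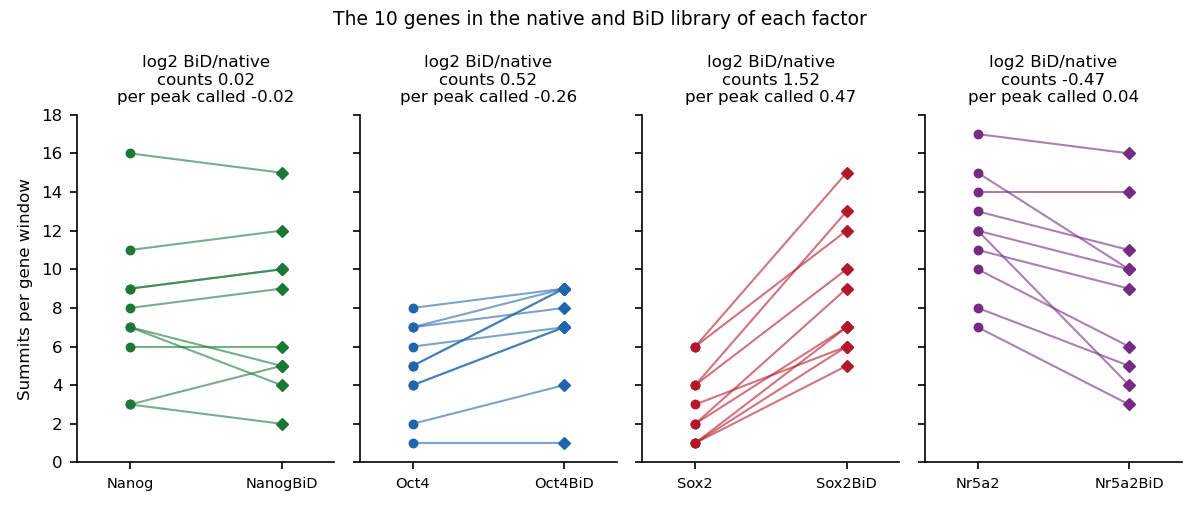
Summits per gene window (vertical axis) in the native (circles) and BiD (diamonds) library of each factor, 1 line per gene, with the log2 ratio of the summed counts and of the counts per peak called above each panel. All 10 lines rise for Sox2, 9 rise for Oct4 and 9 fall for Nr5a2, whereas per peak called the ratios lie between -0.26 and 0.47.

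Sites were shared between the forms to a different extent for each factor. After the peaks of both libraries were merged, the share of regions bound by both forms (the Jaccard index) was 0.625 for Nanog (55 of 88 regions, exact 95% interval 0.515 to 0.726), 0.486 for Oct4 (35 of 72, 0.367 to 0.607), 0.273 for Sox2 (24 of 88, 0.183 to 0.378) and 0.537 for Nr5a2 (66 of 123, 0.444 to 0.627). Over the windows of all coding genes the index was 0.569, 0.377, 0.375 and 0.554. For Sox2, 59 of the 88 regions were found in Sox2BiD alone and 5 in native Sox2 alone. For Nr5a2, 44 were in the native library alone and 13 in Nr5a2BiD alone. These splits were not counted over all coding windows, and they go in the direction of the peak totals. Sox2BiD had 120594 peaks against 58162 in Sox2, and native Nr5a2 108030 against 76217 in Nr5a2BiD. Pairs of libraries of different factors, 24 in all, had indices from 0.102 (Sox2 and Nr5a2) to 0.322 (NanogBiD and Sox2BiD), with a median of 0.218. By this index the Sox2 pair was no closer at these genes than the closest libraries of different factors. The index is limited by unequal numbers of regions, however. Of the native Sox2 regions, 24 were shared with Sox2BiD and 5 were not. NanogBiD and Sox2BiD shared 37 regions, with 36 in NanogBiD alone and 42 in Sox2BiD alone.

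The peaks of all 8 libraries merged into 209 regions in these windows. A single library accounted for 82 of them, or 39.2%, beside 45% of the 217822 regions in windows of coding genes. All 8 libraries had a peak in 5 regions, or 2.39%, beside 1.9%. Counted by factor, 119 regions (56.9%, beside 69.8%) had peaks of 1 factor in either form, 51 of 2 factors, 19 of 3 and 20 (9.57%, beside 5.72%) of all 4. Nr5a2 contributed 53 of the 119 regions of a single factor, Sox2 24, Oct4 22 and Nanog 20. These counts have no background by factor, but regions of 1 library alone do. Their shares were 13.4% for Nr5a2 (11.1% over all coding windows), 2.39% for Nr5a2BiD (1.66%), 0.957% for Sox2 (1.28%) and 9.09% for Sox2BiD (12.3%). For Oct4 the share was 1.91% (2.52%), for Oct4BiD 4.78% (10.2%), for Nanog 3.35% (2.15%) and for NanogBiD 3.35% (3.81%).

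Peaks in both forms of a factor and in no other library marked 20 regions for Nr5a2, 8 for Oct4, 6 for Nanog and 3 for Sox2. Their shares of all regions were 9.57% for Nr5a2, 3.83% for Oct4 and 2.87% for Nanog, beside 10.7%, 4.78% and 3.51% over all coding windows. The Sox2 regions were those of Inhba at 20.7 kb and of Smad3 at 104 kb and 2.92 kb, and their share of 1.44% of regions compared with 5.75% over all coding windows. Nr5a2 regions of this kind were spread over Nodal, Lefty2, Inhba, Tgfb2, Tgfb3, Smad3 and Smad7, and Oct4 regions over Nodal, Lefty1, Tgfb2, Tgfb3 and Smad3. Bmp4 and Tgfb1 had no such region for any factor.

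The 5 regions of all 8 libraries were at Nodal (35 kb, 312 bp from the start of Eif4ebp2), at Lefty2 (-44.7 kb, nearest to Sde2), in Tgfb2 (4.69 kb) and at Smad7 (-0.886 kb and -22.5 kb). Merging by overlap can chain neighbouring sites, and the summits were spread over 88, 2596, 4594, 745 and 2848 bp, respectively. Only the Eif4ebp2 promoter had all 8 summits at 1 place, of 41, 47, 20, 28, 20, 48, 33 and 44 tags. The region at Lefty2 held the highest Sox2 score of these windows, 530.0 with 41 tags in native Sox2 and 698 with 75 tags in Sox2BiD, a log2 height ratio of 0.87 (interval 0.30 to 1.46). Native Nanog had a low second summit of 15 tags at the same end of the region, whereas the highest summits of the Nanog, Oct4 and Nr5a2 libraries lay at the other end.

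**Figure D4:**
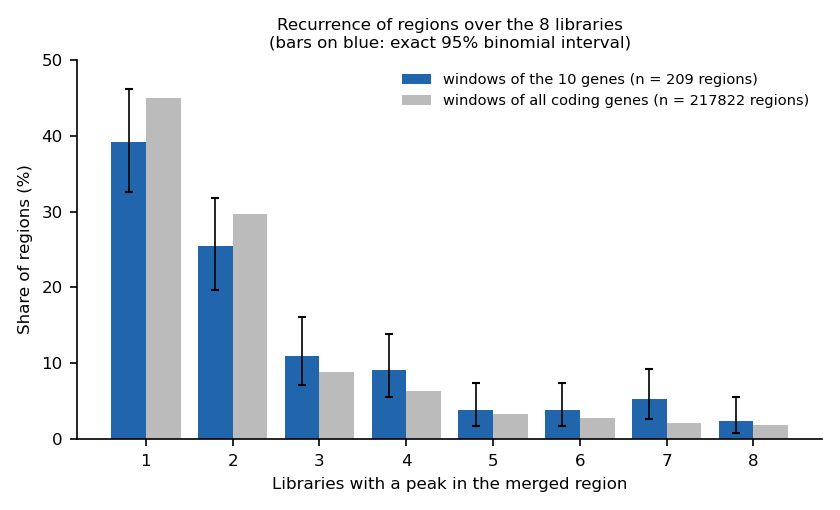
Share of merged regions (vertical axis, percent) by the number of libraries with a peak (horizontal axis), in the windows of the 10 genes (blue, 209 regions, with exact 95% binomial intervals) and of all coding genes (grey, 217822 regions). Regions of 1 library are the largest class in both, at 39.2% and 45%, and regions of 7 libraries make up 5.26% beside 2.1%.

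**Figure D5:**
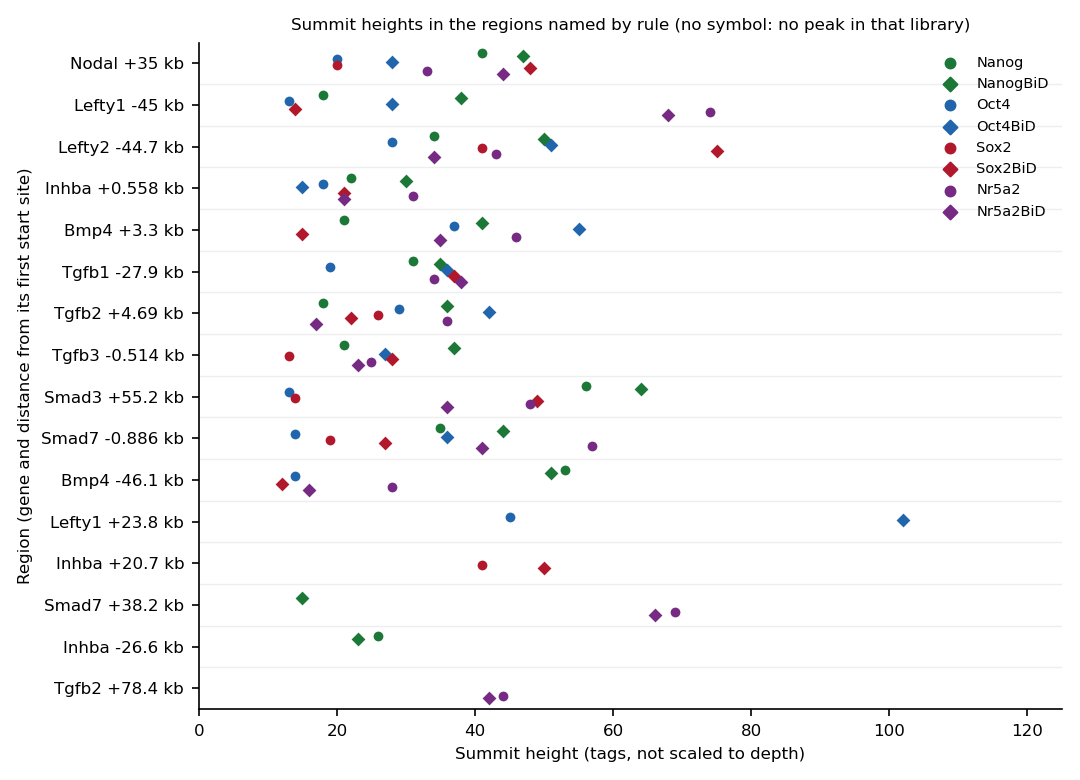
Summit height in tags (horizontal axis, not scaled to depth) in each library for the regions named by rule, labelled by gene and distance from its first start site (the region at -45 kb of Lefty1 is the one at -3.06 kb of Lefty2). The Oct4BiD summit of 102 tags downstream of Lefty1 is the highest. Regions with peaks of 1 factor (Lefty1 at 23.8 kb, Inhba at 20.7 and -26.6 kb, Tgfb2 at 78.4 kb) were named for that trait. Those with 7 or 8 libraries were named for the most libraries at a gene, and not all lie at promoters. The contrast between them therefore follows from the rule.

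Motif matches within 50 bp of the summit were set beside those at all summits of the same library, which have windows of the same length. NR5A matches lay at 32 of 112 native Nr5a2 summits (28.6%, exact 95% interval 20.4 to 37.9) and 18 of 81 Nr5a2BiD summits (22.2%, 13.7 to 32.8), beside 24.6% and 19.9% of all. SOX matches lay at 11 of 83 Sox2BiD summits (13.3%, 6.81 to 22.5), beside 9.52%, and at 0 of 29 native Sox2 summits, which allows up to 11.9%, beside 6.39%. In each of these 4 libraries the general share lay within the interval for the 10 genes.

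The octamer was rare at these genes. It lay at 1 of 44 native Oct4 summits (2.27%, 0.0575 to 12) and 1 of 63 Oct4BiD summits (1.59%, 0.0402 to 8.53), beside 4.17% and 9.72% of all, so that the interval for Oct4BiD lies below the general share. The Oct4BiD match is the region downstream of Lefty1 shown above. The NANOG consensus lay at 0 of 72 Nanog and 1 of 73 NanogBiD summits, beside 1.7% and 2.55%. AP-1 matches were the most frequent of the longer motifs in Nanog, at 13 of 72 summits (18.1%, 9.98 to 28.9) beside 13.9%, and in NanogBiD lay at 8 of 73 (11%) beside 11.4%. The 5-base SMAD letters CAGAC lay at between 16% of summits in Nr5a2BiD and 26.5% in Sox2BiD, beside 24.1% and 22.8%, and the Foxh1 consensus at no more than 1 summit in any library. A match describes the letters in the window and says nothing of which protein was bound.

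A further 41 genes of the pathway, listed by role, were measured in the same way. The gene with the most summits over the 8 libraries was Inha (the inhibin alpha subunit) among 7 ligands with 52, Bmpr1b (a type I Bmp receptor) among 13 receptors and co-receptors with 135, Ski (a corepressor of Smads) among 10 Smads and cofactors with 71 and Grem1 (a secreted Bmp antagonist) among 6 inhibitors with 54. The median over the 41 was 51, between the 59.5 of the 10 genes and the 41 of coding genes. Promoter summits in all 8 libraries, as at Smad7, were found at Tgfbr1, Bmpr2, Smad5, Smad6, Ski, Skil, Bambi and Id2. None of the 41 lacked a promoter summit in every library. The shares of all coding genes with a promoter summit in all 8 libraries or in none were not counted, so neither number has a background. Smad6 and Bambi, like Smad7, restrain signalling from within or at the membrane of the receiving cell. Tgfbr1 and Bmpr2, by contrast, are receptors, and Smad5 transmits Bmp signals.

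By the same 2-fold rule, 31 of 36 of these genes were higher and none lower in Sox2BiD, 13 of 38 higher and none lower in Oct4BiD, 9 of 39 higher and 1 lower in NanogBiD, and none of 40 higher and 6 lower in Nr5a2BiD. The order of the factors was that of the 10 genes and of the background, but the shares were not. Of coding genes, 73.8% were higher in Sox2BiD, 49.1% in Oct4BiD and 10.2% in NanogBiD, and 21.2% were lower in Nr5a2BiD. Shares of the further genes lay above these in Sox2BiD and NanogBiD and below them in Oct4BiD and Nr5a2BiD. Bmpr1b, with the most summits of them, had 24 summits in Nanog, 19 in NanogBiD, 13 in Oct4, 22 in Oct4BiD, 10 in Sox2, 25 in Sox2BiD, 14 in Nr5a2 and 8 in Nr5a2BiD, over a gene longer than any of the 10.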

How the data were processed

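Flag CUT&Tag peak lists of 8 libraries were used. According to the methods, reads were trimmed (Trim Galore 0.6.4) and aligned to mm10 (Bowtie2 2.4.5), repetitive, mitochondrial and poorly mapped reads (quality under 30) were removed (SAMtools 1.16.1), and peaks were called with MACS 1.4.2 at a shift size of 25 bp and 1 tag per position. No control library is named. The methods speak of merged replicates and the reporting summary of a single experiment, so whether a list pools replicates is not known. The labels and the methods name different library kits and cell numbers. The deposited score is 10 times the negative log10 of the caller's p-value, with a minimum of 50. The height deposited for each summit is a signal in whole tags without scaling to depth, so heights of different libraries are not on 1 scale. Filtered reads leave repeats without peaks.

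Coordinates are 1-based and were compared with GRCm38 and GENCODE M21: 0 peaks ran past a chromosome end and 110 lay off the placed chromosomes. Python 3.11.15 was used with SciPy 1.17.1, pandas 2.3.3, NumPy 2.4.6 and, for figures, matplotlib 3.10.9. Counting and merging were tested on simulated data. Peaks overlapping by at least 1 bp were merged, for Jaccard indices in pairs and otherwise over the 8 libraries. Intervals are exact binomial (Clopper-Pearson, 95%) and cover counting error only. Genes, lists and motifs were chosen with earlier results of these data known. Regions were named by rule (for each gene the region in the most libraries, for each library the highest score, for each factor the region of both its libraries alone with the highest lower score), and the other regions described were chosen after their values were seen. The leading gene among the pathway's response genes is not reported here. Alternatives were counts without scaling, a score of at least 100, the 20000 highest-scoring peaks, windows of 25 and 100 kb, other promoter definitions, summits within 100 bp and heights per uniquely mapped read pair, taken from the study's own sequencing summary.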

Additional observations from a re-analysis of the deposited data

Results flagged for a closer look

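In unscaled counts, Nr5a2 had a ratio of opposite sign to the other 3 factors: the log2 ratio of BiD to native summits over the windows of the 10 genes was -0.47 for Nr5a2, 0.52 for Oct4 and 1.52 for Sox2, and 0.02 (interval -0.47 to 0.51) for Nanog, which had 73 summits against 72. Over the windows of all coding genes, counts in the BiD library were likewise lower for Nr5a2 (0.687-fold) and higher for Nanog (1.09-fold), Oct4 (1.76-fold) and Sox2 (2.23-fold). The same opposition appeared at 4 single genes, where the ratio for Nr5a2 was -0.58 at Nodal, -0.29 at Lefty1, -0.24 at Lefty2 and -0.74 at Tgfb2, while all 3 other factors had more summits in the BiD library. With 1 library a group the difference between factors was not tested. Per peak called, the ratio for Nr5a2 was 0.04, and the opposition was no longer seen.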

How the results depend on the processing

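No paired analysis was possible because each group holds 1 library and no result comes from a test. Of 92 alternative values, 38 moved and the others stayed within the interval of the value reported, or within 1.5 times a count. The 7 height ratios kept within their intervals when heights were divided by uniquely mapped pairs, although the interval for Sox2 at Inhba (0.06 to 1.32) then no longer included 0. These regions were named by their scores in the same libraries, so the intervals do not test a difference between the forms. The ratios of BiD to native depended on scaling: without it they were 0.52 for Oct4, 1.52 for Sox2 and -0.47 for Nr5a2, and among the 20000 highest-scoring peaks Oct4 was at 0.42. Counting only summits within 100 bp as shared lowered the Jaccard index to 0.295 (Nanog), 0.321 (Oct4), 0.179 (Sox2) and 0.331 (Nr5a2), a score of at least 100 gave 0.362 for Oct4, and the 20000 highest-scoring peaks gave 0.333 for Nr5a2. Genes with a promoter summit, with a limit of 500 bp, fell to 3 in NanogBiD, 1 in Oct4, 3 in Oct4BiD, 1 in Sox2, 1 in Sox2BiD, 3 in Nr5a2 and 1 in Nr5a2BiD. With any annotated start they rose to 8 in Nanog, 7 in NanogBiD, 4 in Oct4, 7 in Oct4BiD, 3 in Sox2, 7 in Sox2BiD, 8 in Nr5a2 and 9 in Nr5a2BiD. A score of at least 100 left 2 in NanogBiD, 1 in Oct4 and 1 in Sox2. The 20000 highest-scoring peaks left 1 in Nanog, 1 in Oct4BiD and 0 in NanogBiD, Oct4, Sox2, Sox2BiD, Nr5a2 and Nr5a2BiD. With a limit of 500 bp, Smad7 kept a promoter summit in 2 of 8 libraries and Inhba in 0. Regions of all 8 libraries numbered 1 at a score of at least 100, 0 among the 20000 highest-scoring peaks, 3 in windows of 25 kb, 8 in windows of 100 kb and, in an alternative added after the data were seen, 1 when summits were chained within 100 bp. Per 10000 peaks, also added later, the genes called were 0 for Oct4 higher, 4 for Sox2 higher and 1 for Nr5a2 lower, beside 14.5%, 25.6% and 5.64% of coding genes. Beyond what these constructions change, the cause was not tested. The absence of a peak says only that none was called in that library.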

Other observations

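Of the 41 further pathway genes, the 13 receptors and co-receptors carried the most summits, with a median of 68 per gene over the 8 libraries against 51 for 10 Smads and cofactors, 36.5 for 6 inhibitors and 33 for 7 ligands, not scaled to gene length. Summed over the receptors there were 121 summits in Nanog, 137 in NanogBiD, 80 in Oct4, 133 in Oct4BiD, 66 in Sox2, 161 in Sox2BiD, 154 in Nr5a2 and 99 in Nr5a2BiD. Within the group, Bmpr1b had 135 and Acvr1c, the receptor also called ALK7, had 19. The 5 response genes had a median of 58, and among them Id2, an inhibitor of basic helix-loop-helix factors that Bmp signalling induces, had a promoter summit in all 8 libraries.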
